A study of Mus musculus with 4 samples.

Results

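Strong contacts between loci 2 to 10 Mb apart on the same mouse autosome were examined in Micro-C data. In this assay micrococcal nuclease cuts cross-linked chromatin, the ends are ligated, and each sequenced read pair marks a contact between loci. The genome was divided into bins of 8 kb. Strong pairs of bins were chosen by distance and by contacts: they lay 2 to 10 Mb apart, and their contacts, summed over the WT and the PATZ1 KO library of a cell state, reached 10. This rule gave 107 pairs in embryonic stem cells (ESCs), of 22191618 listed autosomal pairs, and 742 pairs in motor neurons (MNs), of 20312056. Together they made 797 different pairs of 30603556 listed in either cell state. At the threshold, 16 ESC pairs and 273 MN pairs held exactly 10 contacts, and a further 16 ESC pairs and 613 MN pairs lay just outside it with 9. The summed contacts chose the pairs, so that their level is a description, whereas the split of the contacts between WT and PATZ1 KO was not used.

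The study asked how PATZ1, a zinc finger protein that binds G-rich DNA, bears on the folding of the genome. There were 4 groups with 1 library each: WT ESCs of the E14 line, PATZ1 KO ESCs made from them by CRISPR/Cas9, and the cervical MNs obtained from either line through embryoid bodies treated with retinoic acid and a smoothened agonist. A KO line of this kind derives from a single cell, and which clone was used for Micro-C was not given in the sources used here. No sorting of the MN cultures is named in the sources used here, and contact data hold no expression, so that the labelled cell types could not be checked against markers. With 1 library per group no test was possible, and library and genotype cannot be told apart. The intervals below are 95% exact binomial (Clopper-Pearson) intervals, which cover counting error only. Intervals of shares count pairs with a common bin as separate.

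Most contacts along a chromosome join neighbouring loci and fall off steeply with distance. Cohesin extrudes loops until it meets CTCF or another barrier, which gives focal contacts mostly within a domain, while loci megabases apart also meet because chromatin of a like state gathers in compartments or in foci of Polycomb-bound developmental genes. At such distances a read that fits several near-identical copies of a sequence can also be placed on the wrong copy, so that repeats and shared sequence are worth examining beside any distant contact.

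The listed autosomal pairs held 166052904 (WT ESC), 154422469 (PATZ1 KO ESC), 108195604 (WT MN) and 113628498 (PATZ1 KO MN) contacts, and every ratio below was scaled to these totals. Contacts 2 to 10 Mb apart made up 0.744% and 0.794% of them in WT and PATZ1 KO ESCs, and 1.90% and 1.88% in the MNs. Per autosomal contact, MNs thus held 2.46-fold more contacts in this range than ESCs over all listed pairs. The strong pairs drew 0.125% and 0.0853% of these distant contacts in WT and PATZ1 KO ESCs, and 0.195% and 0.249% in the respective MNs. A pair is listed only where both libraries of a cell state hold a contact, so that unlisted pairs were counted as 0 and low contact is understated. Sparse distant pairs are the more likely to go unlisted. The totals, the shares and the 2.46-fold therefore describe listed contacts and not the whole libraries.

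Shared sequence was frequent at the strong pairs of ESCs. There, 65 of the 107 pairs (60.7%, 50.8 to 70.0%) shared at least 1 word of 32 bases between their bins on either strand, against 36.3% of all listed pairs 2 to 10 Mb apart. At least 100 such words were shared by 31 of them (29.0%, 20.6 to 38.5%), against 0.643%. The longest identical run of the 65 pairs with shared sequence was at least 100 bases in 24 and 331 bases at most. The runs below, read from the RefSeq GRCm38 assembly at the first bin of each pair, are shown as examples of what such bins share: a stretch within the largest assembly of chromosome 4, a longer run on chromosome 12 and another on chromosome 9, and a TG repeat on chromosome 19. The second bin holds the same letters on the strand named, and runs over 100 bases are given by their first 100.
Gm13223 with Zfp982 (chr4:145449832-145449896, same strand at chr4:147514133-147514197): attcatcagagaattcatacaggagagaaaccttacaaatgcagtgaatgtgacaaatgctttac
no gene with no gene (chr12:18270537-18270636, opposite strand within chr12:21584941-21585175): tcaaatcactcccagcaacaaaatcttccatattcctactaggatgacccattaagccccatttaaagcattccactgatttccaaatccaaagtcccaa
4930563M21Rik with no gene (chr9:56005145-56005244, opposite strand within chr9:59360213-59360475): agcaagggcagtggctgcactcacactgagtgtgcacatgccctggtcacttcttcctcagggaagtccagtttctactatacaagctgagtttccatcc
Rfx3 with Prkg1 (chr19:27879459-27879492, same strand at chr19:31414880-31414913): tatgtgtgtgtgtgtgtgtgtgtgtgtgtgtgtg

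In MNs at least 100 words of 32 bases were shared by 16 of the 742 pairs (2.16%, 1.24 to 3.48%), against 0.841% of listed MN pairs, and 15 of the 16 were among the 58 MN pairs near an ESC strong pair (25.9%, 15.3 to 39%). Of these 58 pairs, 55.2% shared at least 1 word (41.5 to 68.3%). The 684 MN pairs with no ESC strong pair within 1 bin on both ends, called MN-only below, shared a 32-base word in 32.2% (28.7 to 35.8%), against 36.0% of listed MN pairs, and at least 100 words in 1 pair, 0.146%. The part that misplaced reads may have in contacts between bins with shared sequence was not tested. Bins more than 50% soft-masked as repeats occurred in 7.02% of MN-only pairs (5.22 to 9.20%) and 46.6% of the 58 near an ESC strong pair (33.3 to 60.1%), against 20.9% of listed MN pairs, whereas in the ESC list they occurred in 54.2% (44.3 to 63.9%) against 17.4%. The Gm13230 bin, 82.5% masked, was alone in 12 of these ESC pairs, which the interval treats as separate. Where long-range contact is focal, CTCF sites are of interest, and the bins were therefore searched on either strand for the core of the CTCF motif, written as CCA, AG and GGC with any 2 bases between them. They were present in 325 of the 852 MN-only bins (38.1%, 34.9 to 41.5%) and in 32.8% of the 281151 bins of all listed MN pairs. Among bins under 40% GC the shares were 33.2% (28.4 to 38.2%) and 19.3%, at 40 to 45% GC 41.4% (36.3 to 46.7%) and 34.9%, and above that 43.4% (34.5 to 52.7%) and 51.6%, so that MN-only bins held the letters more often than listed bins below 45% GC and not above it. Of 41 bins with many strong pairs or a developmental gene, 21 held such a match, 36 matches in all, of which 10 lay wholly in soft-masked sequence. This count leaves out matches within 20 bases of a bin edge and was not set against other bins, so that no excess is read from it. The matches below come from bins that return in the results, and none of their 12 letters was soft-masked. The letters of each match are in capitals, with 20 bases on either side, written along the strand of the match. They are descriptions of the sequence and not shown to be bound.
Gm13848 and Gm43154 (chr6:31660923-31660974, plus): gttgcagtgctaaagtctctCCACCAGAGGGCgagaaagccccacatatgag
Fam19a4 (chr6:97027471-97027522, minus): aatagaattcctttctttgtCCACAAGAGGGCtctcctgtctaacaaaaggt
Gm37056, in the group of Slitrk3 (chr3:73046450-73046501, minus): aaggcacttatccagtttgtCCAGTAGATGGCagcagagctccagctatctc
Nwd1 (chr8:72674380-72674431, plus): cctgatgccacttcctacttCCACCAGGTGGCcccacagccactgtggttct
Bcl11b (chr12:108004869-108004920, plus): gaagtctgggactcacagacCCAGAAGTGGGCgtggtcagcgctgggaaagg

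The strong pairs were also placed differently on the chromosomes. In ESCs chromosome 4 held 48 of 107 pairs, 44.9% against 5.16% of the listed pairs 2 to 10 Mb apart, and chromosome 12 held 15. In MNs the pairs spread over all 19 autosomes, most on chromosome 6 with 150 (20.2% against 11.98% of listed pairs), chromosome 8 with 93 and chromosome 4 with 82. MN pairs were short within the range, since 584 of 742 (78.7%) spanned 2 to 3 Mb against 53.6% of listed pairs. In ESCs 55 of 107 (51.4%) did so against 45.1%, and 18 pairs reached 7 to 10 Mb, compared with 9 in MNs.

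**Figure D1:**
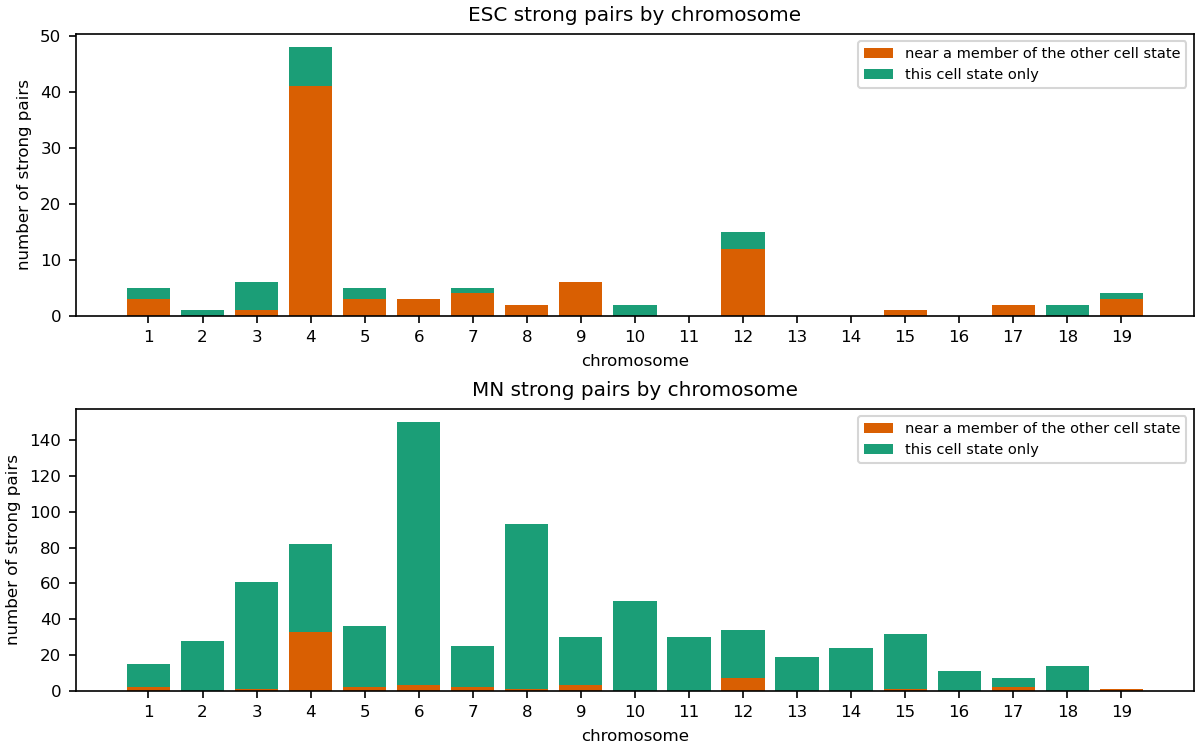
Number of strong pairs (vertical axis) on each autosome (horizontal axis) in ESCs, above, and MNs, below, with pairs within 1 bin of a strong pair of the other cell state in orange and all others in green. In ESCs chromosome 4 holds 48 of 107 pairs, whereas in MNs chromosomes 6, 8 and 4 hold 150, 93 and 82 of 742.

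Strong pairs were next set against their surroundings. The pairs were chosen for high contact and their surroundings were not, so that an excess is in part built in and is given as a description. A pair was called point-like when its contacts were at least 3 times the mean of the 144 pairs forming a ring 3 to 6 bins away, which held for 97 of 107 ESC pairs (90.7%, 83.5 to 95.4%) and 663 of 742 MN pairs (89.4%, 86.9 to 91.5%). The median excess over the ring was 24.6-fold in ESCs, 4.87-fold in MN-only pairs, and 19.2-fold in the 58 MN pairs near an ESC pair. The 10 ESC pairs that were not point-like all belonged to the largest group of chromosome 4, described below, in which 23 of 33 pairs were point-like. Points also gathered. When pairs were joined if both bins lay within 3 bins of each other, 73 ESC pairs (68.2%, 58.5 to 76.9%) fell into 10 groups of at least 3, and 438 MN pairs (59.0%, 55.4 to 62.6%) into 72 such groups. The other ESC pairs formed 9 groups of 2 and 16 single pairs, and the other MN pairs 59 groups of 2 and 186 single pairs.

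In ESCs the largest assembly joined the region of Platr16, a long noncoding RNA gene, to a region of zinc finger and vomeronasal receptor genes about 2 Mb further along chromosome 4. Its first bins lay within chr4:145400001-145600000 and its second bins within chr4:147416001-147824000, and 46 of the 107 ESC pairs (43.0%) belonged to it. In MNs 32 of the 742 pairs (4.31%) lay in the same region. The strongest pair, Platr16 at chr4:145432001-145440000 with Zfp982, a zinc finger gene, at chr4:147512001-147520000, held 36 and 27 contacts in the WT and PATZ1 KO ESC libraries, and 14 and 17 in the WT and PATZ1 KO MN libraries. Gm13230 in the neighbouring bin with Gm15951 and Vmn2r-ps20, the last a vomeronasal receptor pseudogene, held 32, 24, 17 and 16 contacts in the same order. The intervals of both pairs included 0 for WT against PATZ1 KO in either cell state. Platr16 with the bin of Gm15951 and Vmn2r-ps20, the strongest MN pair outside chromosome 17, held 31 and 22 contacts in the WT and PATZ1 KO ESC libraries and 11 and 28 in those of MNs, so that PATZ1 KO was higher in MNs (log2 1.28, 0.23 to 2.43). Over all strong pairs of the region, PATZ1 KO was also higher in MNs, 227 and 299 contacts (log2 0.33, 0.07 to 0.58), whereas the ESC sums were 477 and 408 (log2 -0.12, -0.31 to 0.07). The Platr16 bin had 13 strong pairs in ESCs and 10 in MNs, and the Gm13230 bin had 12 in ESCs. These were the leading bins of 8 ESC bins with at least 5 strong pairs. The bin of Gm15951 and Vmn2r-ps20 followed with 7, and a further Platr16 bin and a bin of chromosome 12 with 6 each.

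The main group of this assembly, 33 pairs in ESCs, can be read as a rectangle of pairs that extends 2 bins beyond the group on each side, whether or not a pair in it is strong. In the same order it held 694, 618, 402 and 496 contacts, and MN contact was 0.989 of ESC contact when scaled to autosomal totals. The second group, 11 pairs, joined the surroundings of Gm46312 at chr12:18256001-18296000 to chr12:21568001-21592000 with 163, 136, 89 and 89 contacts. Of its 11 pairs, 9 shared a 32-base word, and the chromosome 12 run printed above belongs to it. The third, of 6 pairs, joined Platr16 and Gm13230 to the zinc finger genes Zfp984 and Zfp933. Elsewhere, Rfx3, a regulator of cilium genes, was joined to Prkg1, a cGMP-dependent protein kinase gene, by 28, 24, 14 and 13 contacts, and the longest run their bins share is the TG repeat printed above. A pair with no annotated gene, chr9:74584001-74592000 with chr9:81600001-81608000, held 25, 31, 16 and 15 contacts. It exceeded its ring, 3 to 6 bins away, 244-fold, while the bins on either side of its first bin formed strong ESC pairs with the same second bin, of 10 and 10 and of 10 and 8 contacts in WT and PATZ1 KO ESCs. The longest run its bins share is a TC repeat of 51 bases.

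MN groups had a different make-up. Of the 72 groups of at least 3 pairs, 3 held a pair near an ESC strong pair, among them the largest, which was the Platr16 assembly with 22 pairs. The other 69 held none. The largest of these, with 18 pairs, joined chr10:103416001-103464000, named here for Slc6a15, a neutral amino acid transporter gene, to Mettl25 at chr10:105696001-105800000. The bins of the first stretch with the most strong pairs, 7, 6 and 5, hold no gene. Its rectangle held 46 and 43 contacts in the WT and PATZ1 KO libraries of ESCs and 396 and 491 in those of MNs, so that both MN libraries were far above both ESC libraries and MN contact was 14.4-fold that of ESCs. Another 18 pairs joined Nwd1 and Sin3b, a corepressor gene, on chromosome 8 to a gene-free stretch 2.25 Mb away, with 143, 147, 554 and 580 contacts in the same order, 5.65-fold more in MNs. Here the ESC libraries already held contact, and the fold was among the lowest of the 69.

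Of 34 MN bins with at least 5 strong pairs, the leading bin after Platr16 was that of the noncoding genes Gm13848 and Gm43154 at chr6:31656001-31664000, with 8 pairs that summed to 56 contacts in WT and 38 in PATZ1 KO MNs. Bins with 7 pairs included Fam19a4, a gene for a secreted chemokine-like protein (40 and 43), Eogt, a glycosyltransferase gene (55 and 46), Nwd1 (40 and 51), Papola, a poly(A) polymerase gene (38 and 55), a bin without a gene on chromosome 3 (35 and 47) and one on chromosome 10 (37 and 58). Papola took part in neighbouring groups of 9 pairs each, one with Setd3, an actin methyltransferase gene, and one with Bcl11b.

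**Figure D2:**
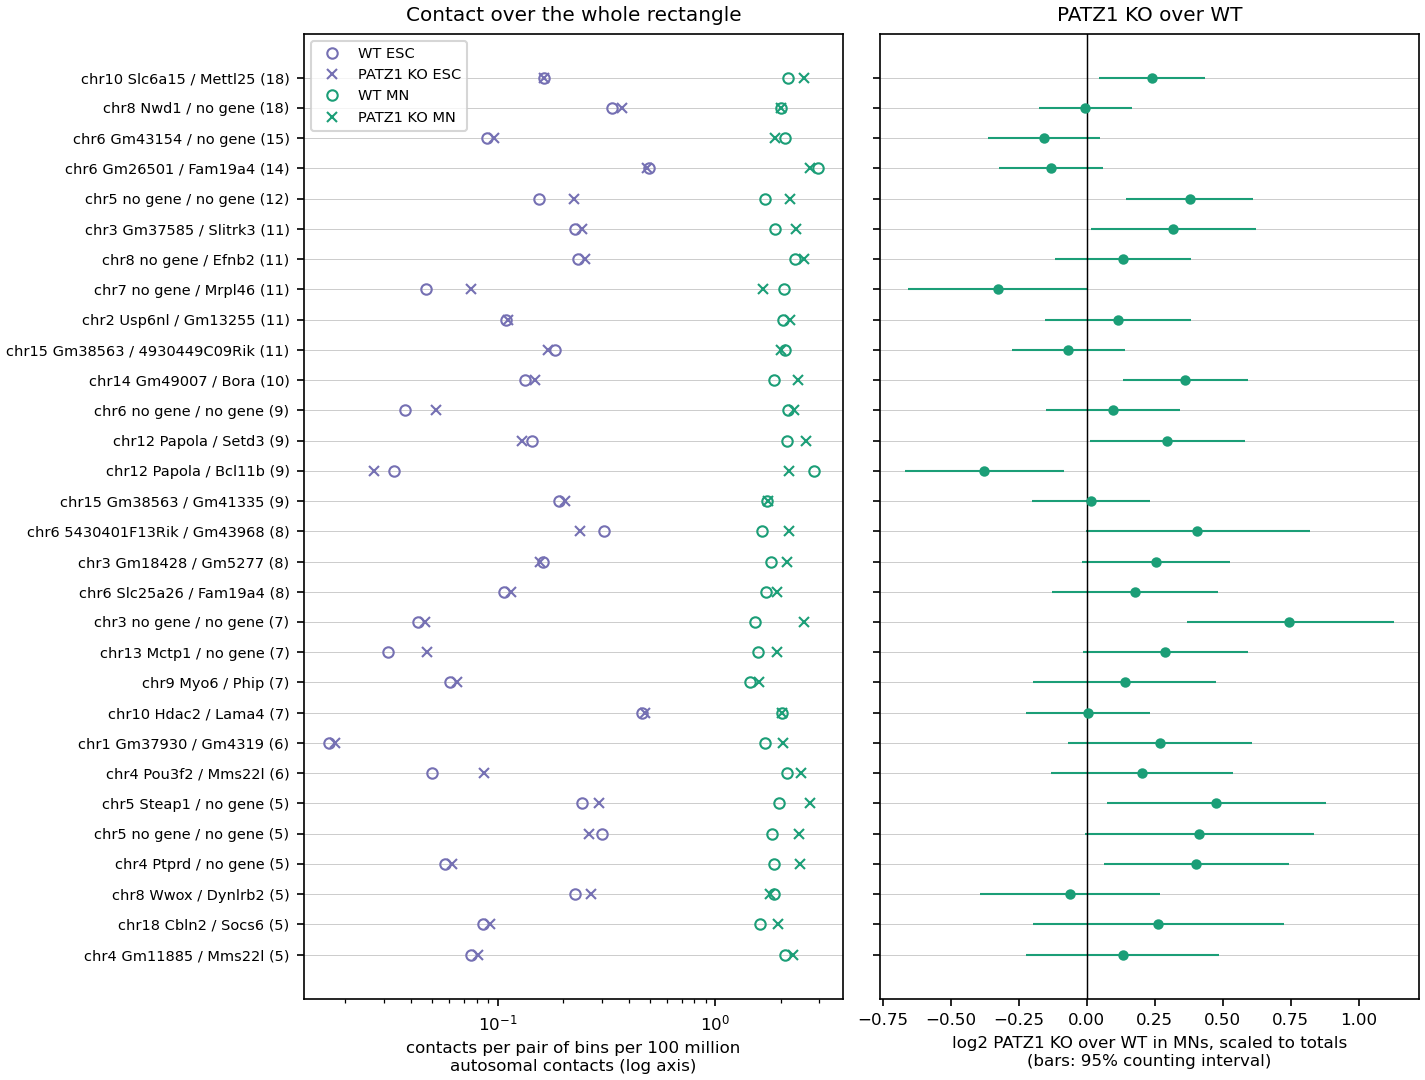
Of the 31 MN groups of at least 5 strong pairs without a pair near an ESC strong pair, 30 by chromosome and genes with the number of pairs in brackets: left, contacts per pair of bins per 100000000 autosomal contacts over the whole rectangle of the group in each library (log axis); right, log2 of PATZ1 KO over WT contact in MNs with its 95% counting interval. Every MN value lies to the right of every ESC value of its group, and the KO over WT values lie on both sides of 0, from the Papola and Bcl11b group at -0.38 to a gene-free chromosome 3 group at 0.75.

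Genes at the strong pairs were counted by their start. A start of a protein-coding gene lay in at least 1 bin of 68 MN pairs (9.16%, 7.19 to 11.5%), against 8.26% of listed pairs, and in both bins of 1 pair, Ppp3r2 with Nipsnap3a on chromosome 4, which held 7 contacts in WT and 4 in PATZ1 KO MNs. Coding genes over 200 kb overlapped 22.5% of MN pairs (19.5 to 25.7%) against 32.6% of listed pairs, and 9.35% of ESC pairs (4.57 to 16.5%) against 34.0%. Counted by bin, the difference was small in MNs, as 15.6% of MN-only bins overlapped such a gene (13.2 to 18.2%) against 17.8% of bins of listed pairs, with 19.6% (15.6 to 24%) against 18.7% under 40% GC, 11.9% (8.73 to 15.7%) against 19.2% at 40 to 45%, and 14.8% (8.98 to 22.3%) against 14.2% above that.

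Developmental regulators were a list of 354 transcription factors and signalling genes, of which 348 were in the annotation. Genes of this list were few in number at strong pairs, although their share in MNs was above that of listed pairs. In ESCs none of the 107 pairs had such a start in a bin (0%, with an exact upper limit of 3.39%, and of 2.80% by a limit of 3 counts), against 0.197% of listed pairs, a share too low for a shortfall to be detectable in 107 pairs. In MNs 7 of 742 did (0.943%, 0.380 to 1.93%), against 0.137% of listed pairs. The interval treats pairs that share a bin as separate, and 4 of the 7 share the Bcl11b bin. Both the count and the share depend on the list, which was chosen with earlier results of these data known. Outside the list, Bcl11a, Cited2 and Efnb2 started at 1, 2 and 5 MN-only pairs. No pair of either cell state had a listed regulator in both bins, and none had a Hox gene, so that a contact between a pair of developmental genes was not among the strong pairs. Regulators in both bins made up 0.000352% of listed ESC pairs and 0.00017% of listed MN pairs, too few for a shortfall to be detectable. The 7 pairs came from 4 genes, all of them transcription factors. Bcl11b, which acts in T cell and corticospinal neuron development, gave 4 pairs in adjoining stretches, with 18 WT and 29 PATZ1 KO contacts in MNs in all and no listed contact in ESCs. Foxp2 gave 1 pair with 6 and 5 contacts, Pou3f2, a neural POU factor, gave 1 with Klhl32 with 4 and 6, and Tfap2a, a neural crest and skin factor, gave 1 with 5 and 5. None of these last 3 pairs was listed in ESCs. The lists of pluripotency genes (29 annotated), motor neuron genes (39), cohesin and insulator genes (15), olfactory receptors (1397), clustered protocadherins (57) and histone genes (69) had no start at a strong pair of either cell state. Olfactory receptors had a start in 0.658% of listed ESC pairs and 0.598% of listed MN pairs, against exact upper limits of 3.39% and 0.496% here. Each of the other lists had a start in at most 0.0245% of listed pairs, too few for a shortfall to be detectable. Of 559 vomeronasal receptor genes, Vmn2r-ps20 and Vmn2r-ps24 accounted for 8 ESC pairs (7.48%, 3.28 to 14.2%) against 0.184% of listed pairs, and the list had 5 MN pairs (0.674%, 0.219 to 1.57%) against 0.166%. The single bin of Gm15951 and Vmn2r-ps20 gave 7 of these ESC pairs and all 5 MN pairs, which the intervals treat as separate. Of 410 zinc finger genes, Zfp982 and Zfp984 accounted for 2 ESC pairs (1.87%, 0.227 to 6.59%) against 0.185%, and the list had 1 MN pair (0.135%) against 0.144%.

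The 250 bases before the start of Pou3f2 and of Bcl11b are shown. Of the 4 transcription factors above, only these had an entry in the promoter table at their strong pair. PATZ1 is described as binding G-rich DNA. The letters GGGAGGG, searched on either strand, are in capitals. They were present in 11 of 35 promoters of the coding genes that start at MN-only pairs (31.4%; 31 of 48 genes matched the RefSeq GRCm38.p6 promoter table), and in 6468 of all 32851 promoters (19.7%). Several starts of a gene count separately, and overlapping promoters of Cntn5 hold the same match. With so few promoters, no excess is read from these shares. Of the genes named below, Efnb2, Slitrk3, Nxph1 and Grik2 had no match, and Cntn5 and Cdh7 had a match in at least 1 promoter.
Pou3f2 (chr4:22488367-22488616, minus): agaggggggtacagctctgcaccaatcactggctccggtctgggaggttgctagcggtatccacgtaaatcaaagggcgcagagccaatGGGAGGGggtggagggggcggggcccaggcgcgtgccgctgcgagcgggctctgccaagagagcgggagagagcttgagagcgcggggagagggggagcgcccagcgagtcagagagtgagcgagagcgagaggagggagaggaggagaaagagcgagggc
Bcl11b (chr12:108003415-108003664, minus): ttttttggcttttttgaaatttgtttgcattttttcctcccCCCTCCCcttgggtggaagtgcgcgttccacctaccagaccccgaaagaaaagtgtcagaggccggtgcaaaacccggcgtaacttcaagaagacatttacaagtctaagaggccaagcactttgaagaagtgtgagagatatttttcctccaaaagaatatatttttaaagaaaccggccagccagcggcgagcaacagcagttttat

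In all, 48 coding genes started in 44 bins of MN-only pairs, and for 37 of them no such pair was listed in ESCs, close to the share over all MN-only pairs, of which 24.3% were listed there. The genes named here were chosen after their values were seen, and no theme was tested among the 48. Efnb2, the axon guidance ligand ephrin-B2, had the most pairs, 5, with 33 and 42 contacts in the WT and PATZ1 KO libraries of MNs and 2 and 1 in those of ESCs. Slitrk3, a synaptic adhesion gene, had 3 pairs with 15, 18, 3 and 3 contacts in the same order. Nxph1, which encodes a ligand of neurexins, had 3 pairs with 15 and 19 contacts in WT and PATZ1 KO MNs and none listed in ESCs. Over these pairs at the gene starts, the intervals of all 3 genes for PATZ1 KO against WT in MNs included 0. Grik2, a kainate receptor subunit gene, had 2 pairs with 4 WT and 16 PATZ1 KO contacts in MNs (log2 1.93, 0.30 to 3.97), and Cdh7, a cadherin gene, 1 pair with 2 and 10 (log2 2.25, 0.02 to 5.48). Cntn5, a contactin gene, followed with 6 and 16 (log2 1.34, -0.08 to 2.99). Among the 48 genes, the intervals of Grik2 and Cdh7 alone left out 0. Over so many genes a few intervals can leave out 0 by counting error, so that no change at a single gene is read from them. Of the 48 genes, 28 were higher and 20 lower in PATZ1 KO than in WT MNs after scaling, near the share of all MN-only pairs that were higher, 59.1%.

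ESC and MN strong pairs overlapped in 52 pairs, which were 48.6% of the ESC list (38.8 to 58.5%) and 7.01% of the MN list (5.28 to 9.09%). Allowing 1 bin on either end, 81 ESC pairs (75.7%) lay near an MN strong pair and 58 MN pairs (7.82%) near an ESC strong pair. Pairs chosen in ESCs were thus also contacted in MNs. Of the 107, 94.4% were listed in MNs, and their summed contact in MNs was 0.835 of that in ESCs (log2 -0.26, -0.35 to -0.17) when scaled to autosomal totals. This log2 ratio was -1.56 when scaled to contacts 2 to 10 Mb apart, of which MNs hold more, and -0.79 in the WT libraries alone, or -0.37 there without chromosome 17. Of the 742 pairs chosen in MNs, 30.1% were listed in ESCs (26.8 to 33.5%), more than the 14.7% of MN pairs with 7 to 9 contacts and the 4.61% of those with 3 to 4. In ESCs 58.9% of the pairs with 7 to 9 contacts were listed in MNs. Of the 684 MN-only pairs, which by definition lack an ESC strong pair, 24.3% were listed in ESCs, and their contact in MNs was 24.8-fold that in ESCs (log2 4.63, 4.50 to 4.77). A list chosen in 1 cell state leans towards that state, and unlisted pairs count as 0, so that this fold overstates the change. It also depends on the scaling. Over all 742 MN pairs the log2 ratio was 2.51 when scaled to autosomal totals and 1.21 when scaled to contacts 2 to 10 Mb apart.

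The rectangles around the groups depend less on the choice of single pairs. Over the 69 MN groups without an ESC strong pair, 67 had contacts in both cell states, and the MN over ESC ratio had a median of 19.2-fold and ranged from 4.33-fold at Hdac2 and Lama4 to 167-fold at a group joining Nxph1 to chr6:12240001-12272000 (log2 7.38, 5.51 to 10.4), where the ESC libraries held 1 contact each and the MN libraries 89 and 142. A second Nxph1 group, with chr6:11264001-11320000, held 16 and 13 contacts in the ESC libraries and was 10.2-fold higher in MNs. At Bcl11b with Papola the ESC libraries held 4 and 3 contacts and the MN libraries 220 and 178 (log2 6.36, 5.30 to 7.68). At the remaining 2 groups, Chmp4c with Ralyl and Erich3 with Zranb2, no pair was listed in ESCs and no fold is given. These folds are scaled to autosomal totals and take no account of the surroundings. Against the 12 bins around it on each side, contact in the rectangle had a median ratio of 1.58 in ESCs and 3.64 in MNs. Averaged around the group centres, MN-only groups had 2.37 and 2.82 contacts per pair and 100000000 autosomal contacts within 16 kb of the centre in WT and PATZ1 KO MNs, 1.13 and 1.22 at 24 to 48 kb, and 0.552 and 0.568 at 56 to 120 kb. In WT and PATZ1 KO ESCs the centre held 0.156 and 0.172 and the outermost zone 0.0738 and 0.0805. These groups were chosen and centred on MN contact, so that the height and place of the peak are a description. The 22 ESC groups near an MN pair, chromosome 17 left out, had 1.12, 1.11, 1.04 and 1.17 at the centre in WT ESCs, PATZ1 KO ESCs, WT MNs and PATZ1 KO MNs and fell to 0.126, 0.128, 0.132 and 0.136 at 24 to 48 kb. These were sharp points of about the same height in all 4 libraries when scaled to autosomal totals, as groups chosen for contact in both cell states would tend to be, although not relative to contacts 2 to 10 Mb apart, which were 2.46-fold higher in MNs. The rectangles of the 12 ESC groups not near an MN pair had a median MN over ESC ratio of 0.682-fold, from 0.289 to 1.73.

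**Figure D3:**
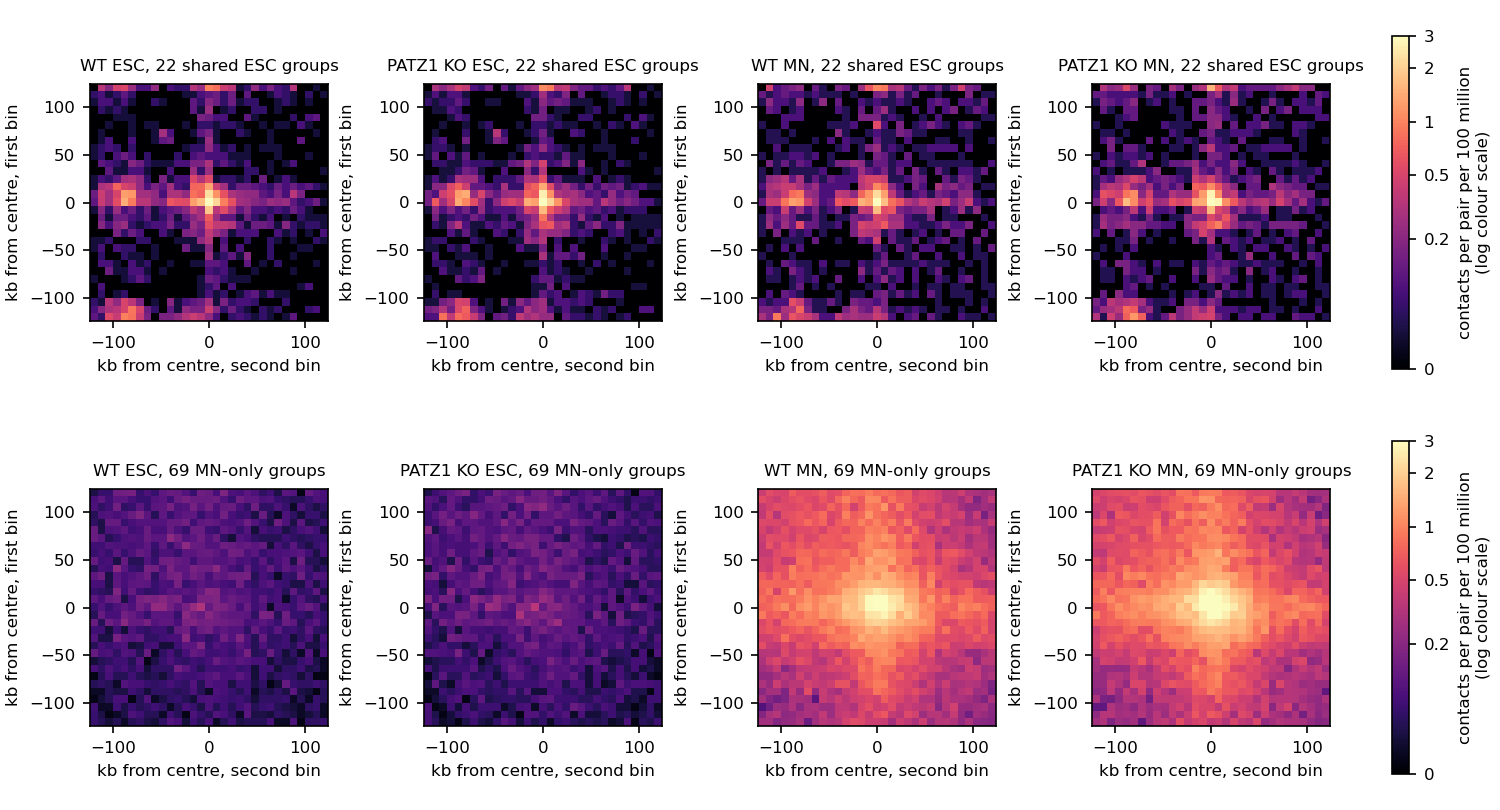
Mean contact around group centres in each library, in contacts per pair of bins per 100000000 autosomal contacts (log colour scale), against distance in kb from the centre of the first bin (vertical) and the second bin (horizontal): 22 ESC groups near an MN strong pair above, 69 MN-only groups below. The upper points are alike in the 4 libraries on this scaling and narrow, with lesser patches to the left, and the lower centre reaches 2.37 and 2.82 in the WT and PATZ1 KO MN libraries against 0.156 and 0.172 in the ESC libraries.

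Loss of PATZ1 was compared next. In ESCs the 107 pairs held 1539 contacts in WT and 1045 in PATZ1 KO, a log2 ratio of -0.45 (-0.57 to -0.34). This decrease came from 2 neighbouring pairs on chromosome 17, described below. Without them the sums were 1004 and 903, and the log2 ratio was -0.05 (-0.18 to 0.08). In MNs the 742 pairs held 4007 contacts in WT and 5308 in PATZ1 KO, a log2 ratio of 0.33 (0.28 to 0.39). It was 0.29 (0.23 to 0.35) without chromosome 17 and likewise 0.29 (0.22 to 0.35) over the MN-only pairs, which held 3532 and 4528. Over the 25 MN pairs with at least 20 contacts outside chromosome 17 it was 0.14, with an interval that included 0 (-0.09 to 0.37). Over all listed pairs 2 to 10 Mb apart it was 0.09 in ESCs and -0.02 in MNs, but most of these hold the 1 contact in each library that listing requires, which fixes their ratio.

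Single pairs were compared by a fixed fold of 2 after scaling. In ESCs 8 pairs were at least 2-fold higher in PATZ1 KO (7.48%) and 13 at least 2-fold lower (12.1%). Among all autosomal ESC pairs with at least 10 contacts, at any distance, 7.18% were higher and 10.4% lower, and among those with 10 to 19 contacts 10.4% and 14.9%, so that the ESC strong pairs were near the background. In MNs 167 pairs were at least 2-fold higher in PATZ1 KO (22.5%) and 52 at least 2-fold lower (7.01%). The background was 8.38% higher and 10.8% lower over all autosomal MN pairs with at least 10 contacts, and 12.4% and 15.8% over those with 10 to 19, the reverse order. A pair with 10 contacts passes this fold by counting error often, and the direction of a single pair is therefore weakly held.

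**Figure D4:**
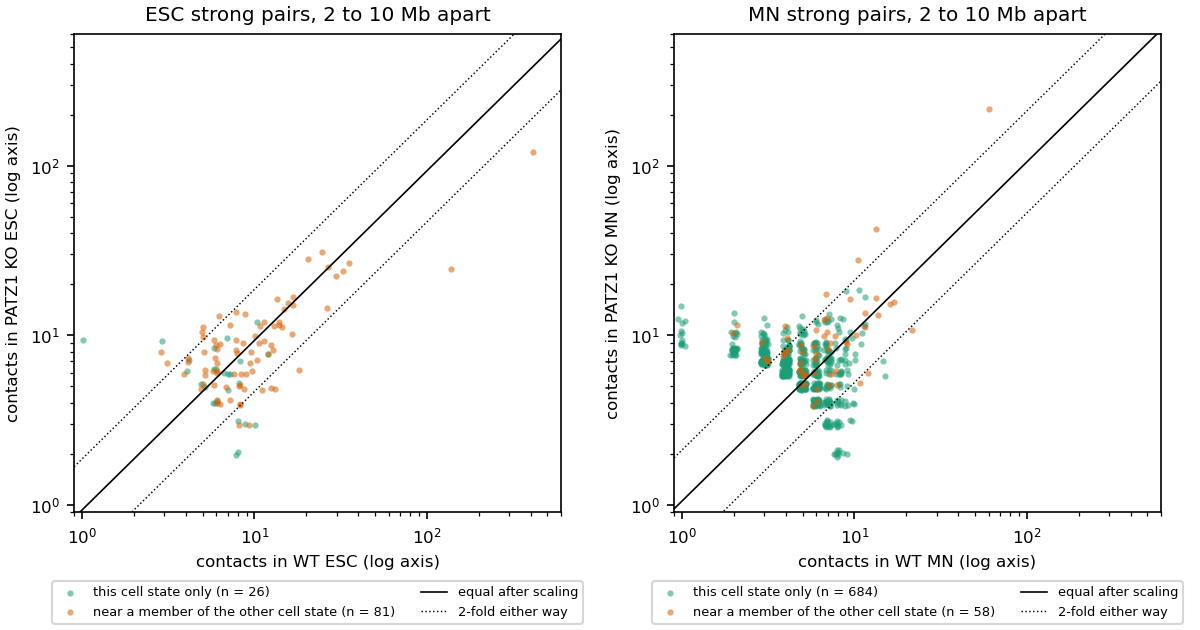
Contacts in PATZ1 KO (vertical, log axis) against WT (horizontal, log axis) for each strong pair in ESCs, left, and MNs, right, with a small random shift so that equal counts remain visible; the solid line marks equal contact after scaling to the library totals and the dotted lines 2-fold either way. In ESCs the chromosome 17 pairs (398 and 117, 137 and 25) lie below the lower dotted line, and in MNs the same pairs (60 and 222, 13 and 44) lie above the upper one, while 167 MN pairs lie on or above it and 52 on or below the lower one.

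The higher contact in PATZ1 KO MNs was spread over chromosomes. Of the 18 autosomes with an MN-only pair, 15 had a log2 ratio above 0, in 10 of them with an interval above 0, and 3 had one below 0, in none of them with an interval below 0. The values ran from -0.17 on chromosome 7 to 0.60 on chromosome 2, where 28 pairs held 124 contacts in WT and 198 in PATZ1 KO. Chromosome 6, with 147 pairs, held 799 and 948 (log2 0.18, 0.04 to 0.31). Among all listed MN pairs of this distance the log2 ratio was -0.07 for pairs with 2 contacts, which by the listing rule hold 1 in each library so that the value is that of the scaling alone, 0.05 for 3 to 4, 0.17 for 5 to 6, 0.25 for 7 to 9 and 0.33 for 10 or more. In ESCs it was 0.10, 0.05, 0.05 and -0.01 for the lower classes, and -0.05 for 10 or more without chromosome 17. The same rule draws the next classes towards equal counts, so that the order of the classes does not show that the difference grows with contact. Contact of the same MN-only bins up to 200 kb gave a log2 ratio of 0.02 in MNs (0.01 to 0.03), against -0.04 over all autosomal pairs of that distance. The local contact of the MN-only bins thus differed far less between the libraries. At the 67 bins of MN pairs near an ESC strong pair, the chromosome 17 bins included, it was 0.18 (0.15 to 0.22) in MNs and -0.24 (-0.27 to -0.22) in ESCs. The bin at chr17:39840001-39848000 alone gave 1.00 in MNs and -1.58 in ESCs, and no value without the chromosome 17 bins was computed.

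**Figure D5:**
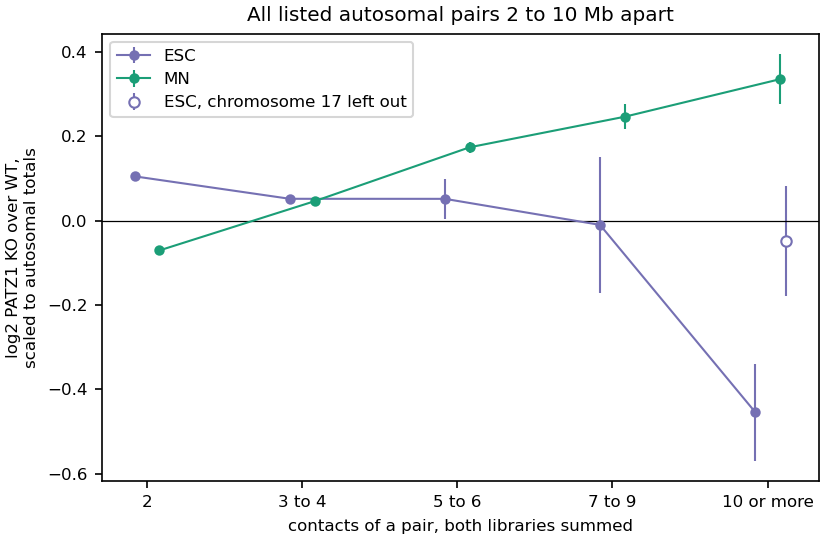
Log2 of PATZ1 KO over WT contact, scaled to autosomal totals, for all listed pairs 2 to 10 Mb apart (vertical) by the summed contacts of a pair (horizontal), in ESCs (purple) and MNs (green) with 95% counting intervals; the open circle is the ESC class of 10 or more without chromosome 17. The lowest class is fixed by the listing rule at -0.07 in MNs and 0.10 in ESCs and the next ones are drawn towards it; the class of 10 or more lies at 0.33 in MNs and, without chromosome 17, at -0.05 in ESCs.

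By group, the rectangles of the 69 MN-only groups summed to 10265 contacts in WT and 12116 in PATZ1 KO MNs, a log2 ratio of 0.17 (0.13 to 0.21), and to 1239 in each ESC library (0.10, -0.01 to 0.22). The ratio in MNs was above 0 in 57 of the 69, with an interval above 0 in 20 and below 0 in 1. In the ESC libraries it was above 0 in 52 of the same 69 rectangles, with an interval above or below 0 in none, but equal counts give 0.10 there after scaling, and the listing rule holds sparse rectangles near equal counts, so that nothing is read from the 52. No such count was made over other rectangles of like contact in MNs, so that the 57 and the 20 describe these groups only. Among the groups with an interval above 0 were Slc6a15 with Mettl25 (396 and 491, 0.24), Slitrk3 (162 and 212, 0.32), and the first Nxph1 group (89 and 142, 0.60). The second Nxph1 group held 96 and 109 (0.11, -0.30 to 0.52). The highest was a gene-free chromosome 3 group with 92 WT and 162 PATZ1 KO contacts (0.75, 0.37 to 1.13). The group with an interval below 0 was Papola with Bcl11b, 220 and 178 (-0.38, -0.67 to -0.08). Its 9 strong pairs alone held 51 and 56 contacts (0.06, -0.51 to 0.64), so that the lower contact in PATZ1 KO lay in the weaker pairs around them.

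Of single pairs with at least 20 contacts, the 3 with the largest change in each direction are given for each cell state, beside the chromosome 17 pairs. In MNs Gm13230 with Zfp982 went from 7 contacts in WT to 18 in PATZ1 KO (log2 1.29, -0.04 to 2.79). The lower pairs were a gene-free bin at chr6:95056001-95064000 with Eogt, 15 and 6 (-1.39), Nwd1 with chr8:74928001-74936000, 15 and 7 (-1.17), and Platr16 with a second Zfp982 bin, 22 and 11 (-1.07). Their intervals all reached 0. In ESCs the last of these pairs held 20 and 29 (0.64, -0.23 to 1.54). The other higher ESC pairs were 4930563M21Rik with a gene-free bin, 8 and 13 (0.81), and a gene-free pair starting at chr4:27360001, 9 and 14 (0.74), whose intervals also included 0. Gm13230 with Gm13141 fell from 18 to 6 (-1.48, -3.10 to -0.09).

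The strongest pair of both cell states lay on chromosome 17. Its first bin, chr17:36224001-36232000, holds Gm10074, Gm18604, Gm20545 and Gm29402, and its second, chr17:39840001-39848000, holds Gm26917 and Gm42418, the latter named Rn18s-rs5, a ribosomal RNA related sequence, in RefSeq. The pair held 398 and 117 contacts in the WT and PATZ1 KO libraries of ESCs, and 60 and 222 in those of MNs. WT exceeded PATZ1 KO in ESCs (log2 -1.66, -1.97 to -1.36) and PATZ1 KO exceeded WT in MNs (log2 1.82, 1.40 to 2.25). The next bin, chr17:39848001-39856000 with AY036118 and CT010467.1, held 137, 25, 13 and 44 contacts with the same first bin (log2 -2.35 in ESCs and 1.69 in MNs). No 32-base word was shared within these pairs, and the ring around the point held no contact to set it against. Contact of the second bin with loci up to 200 kb away moved in the same directions, 1837 in WT and 570 in PATZ1 KO ESCs (log2 -1.58), and 365 and 768 in MNs (log2 1.00), as did that of the next bin (log2 -1.44 and 0.88). The first bin did not move with them, at 339 and 315 contacts in ESCs (log2 -0.00) and 215 and 214 in MNs (log2 -0.08). The part that the overall signal of the ribosomal RNA related bins had in the change of the pair was not tested.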

How the data were processed

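Micro-C libraries of WT and PATZ1 KO ESCs and MNs, 1 per group, had been mapped and compared for the authors by the company that supplied the kit. Mapping was to mm10 (GRCm38) per the submitters' processing notes, and the mapping quality filter was not given in the sources used here. The authors deposited, for each cell state, a HiCcompare list of pairs of 8 kb bins. The authors deposited unscaled counts of contacts (interaction frequencies) for each pair. Beside them stands an adjusted signal, which the authors normalized jointly over both libraries against distance and which served as an alternative. The deposited distance D is in bins. The lists also hold the authors' own comparison, the differences, Z scores and p-values, which were not used.

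The columns are numbered 1 and 2 without a sample name, and every direction rests on reading 1 as WT and 2 as PATZ1 KO, as the comparison's name orders them.

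From the counts, pairs with D of 251 to 1250 and at least 10 summed contacts were taken on the 19 autosomes. Ratios were scaled to the autosomal totals of the listed pairs, 108195604 to 166052904 contacts. Genes are those of GENCODE whose start lies in a bin, or otherwise those that overlap it. Shared words of 32 bases, GC, soft-masking and motifs were read from the RefSeq GRCm38 sequence. The grouping and ring steps and the intervals were checked on simulated data. Named were, for each cell state, the 5 strongest pairs, the 5 bins with the most pairs, the 3 largest groups, pairs with a developmental gene, and the 3 pairs of at least 20 contacts with the largest change in each direction. Others were named after their values were seen. The plot of MN groups leaves out 1 group, which is not reported here. The pairs and the gene lists were chosen with earlier results of these data known.

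Alternatives were the contact minimum, distance, scaling, ring, joining distance, fold, and leaving out bins or pairs. Python 3.11.15, numpy 2.4.6, pandas 2.3.3, scipy 1.17.1, numba 0.67.0 and matplotlib 3.10.9 were used.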

Additional observations from a re-analysis of the deposited data

Results flagged for a closer look

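Of the 52 pairs in both lists, 2 had PATZ1 KO over WT ratios that moved in opposite directions in the cell states with intervals on opposite sides of 0. The chromosome 17 pair of 36224001 with 39840001 had a log2 ratio of -1.66 in ESCs and 1.82 in MNs, a difference of 3.48. Its neighbour, 36224001 with 39848001, had -2.35 and 1.69, a difference of 4.04. Each value rests on 1 library per group, and the difference between the cell states was not tested. Both pairs share their first bin, and their second bins adjoin, so that they are not independent of each other.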

How the results depend on the processing

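Across 24 results and 92 alternative settings, 46 values stayed close to those reported, 46 moved and no ratio changed sign. A minimum of 20 contacts left 32 ESC and 27 MN pairs, with log2 KO over WT of -0.74 and 0.66, or -0.091 (-0.28 to 0.098) and 0.14 (-0.090 to 0.37) without the chromosome 17 pairs (chosen after seeing the data), point-like shares of 100% in both, clustered shares of 53.1% and 25.9%, and 0% developmental pairs in MNs. A minimum of 7 in MNs gave 5819 MN pairs, of which 1.36% were ESC pairs exactly and 1.87% within 1 bin, or 73.8% and 94.4% of the ESC list. At 5 to 10 Mb the point-like share was 100% in both cell states, the clustered share 43.5% in ESCs and 0% in MNs, the developmental share 0% in MNs and the ESC log2 KO over WT -0.088. A ring threshold of 2 gave point-like shares of 98.1% and 99.2%. Clustered shares were 35.7% and 44.3% without bins of at least 5 pairs, 50% and 47.6% without pairs that share a 32-base word, and 36.5% in MNs when joined within 1 bin. The first 2 of these settings gave ESC log2 KO over WT ratios of -0.67 and -0.87, as they keep the chromosome 17 pairs. A fold of 1.5 gave 22 higher and 20 lower ESC pairs, where a fold of 2 gave 8 and 13, and 260 higher and 117 lower MN pairs. The share over all autosomal pairs was not computed at 1.5-fold, so that nothing is read from these counts. Bins with at least 10 pairs numbered 2 in ESCs and 1 in MNs. Log2 MN over ESC was -1.56 for the ESC list and 1.21 for the MN list when scaled to contacts 2 to 10 Mb apart, and -0.79 and 2.11 in WT libraries alone. Chosen after seeing the data, leaving out the chromosome 17 pairs gave -0.048 for ESC log2 KO over WT and 2.93 for MN over ESC in the MN list, or -0.37 and 2.76 for MN over ESC in the ESC and MN lists in WT libraries alone, and leaving out chromosome 4 gave a clustered ESC share of 52.5%. Ratios for pairs of developmental genes were not run, as no pair had one in both bins. No paired analysis was possible because each group had 1 library. At 10 contacts per pair, counting error limits every single pair. Sums over pairs have less counting error, but a single locus can set them, as the chromosome 17 pairs did in ESCs.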

Other observations

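The X chromosome was outside the rule. Under the same thresholds it held no strong pair in ESCs, of 31077 listed pairs 2 to 10 Mb apart, and 5 in MNs, of 51474, with 14 WT and 47 PATZ1 KO contacts.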
